A study of Mus musculus with 10 samples.

Results

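Regulatory T cells (Tregs) of the gut were compared with Tregs of the spleen in control mice. The comparison used every WT gut and WT spleen library of the series, which were chosen by their labels and make up 5 of its 10 libraries. All came from C57BL/6 mice carrying Foxp3Cre-YFP, an allele that makes a Cre recombinase and a yellow fluorescent protein wherever Foxp3 is expressed, so the controls carry the Cre as well and have an unmodified Maf gene. Tregs had been sorted as CD4+ TCRb+ YFP+ cells, and RNA was sequenced in 2 gut libraries (replicates 1 and 3) and 3 spleen libraries (replicates 1, 2 and 3). The gut samples combined colon and small intestine, so the segments cannot be told apart. The labels give neither age nor sex. The other 5 libraries came from C57BL/6 mice of the genotype Maf fl/fl x Foxp3Cre-YFP (Maf-KO), with 2 gut and 3 spleen libraries, and served as a second set in which the same tissue contrast could be measured. The libraries' titles carry a number that each WT gut library shares with 1 WT spleen library.

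Tregs are CD4 T cells that depend on the transcription factor Foxp3 and restrain other immune cells. Those that circulate through spleen and lymph nodes keep receptors for lymphoid homing and factors of resting T cells, such as TCF1. Those that live in the intestinal wall meet food and microbial antigens. They are known for IL-10, for factors such as GATA3, and for receptors that hold cells in the mucosa.

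Reads had been counted per gene. The 5 libraries held 8728874 to 12225539 counts, and the analysis scaled each library by TMM factors (0.887 and 0.912 in gut, 1.06 to 1.12 in spleen) and tested 13214 genes. A level is given in CPM, the usual per-library scale of counts over the scaled library total. A difference is the log2 of gut over spleen with its standard error (SE). A gene was called when its Benjamini-Hochberg adjusted p, over all 13214 genes, was under 0.05 by edgeR's quasi-likelihood test. The gut libraries differed from each other by more than counting error (chi-square per degree of freedom 34.9), as the spleen libraries did (16.8 to 21.1). The labels do not say that replicates are separate animals, so p values measure the spread between these samples. Because these are bulk libraries, fewer cells of a type and less RNA per cell cannot be told apart.

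Gut and spleen Tregs differed widely in gene expression. Of the 13214 genes tested, 3703 were called (28%), 1942 of them higher in gut (14.7%) and 1761 lower in gut (13.3%). Differences of 2-fold or more were found in 1936 called genes, 1158 higher and 778 lower. Differences of 8-fold or more were found in 374 called genes higher in gut and 157 lower in gut. The median difference over all genes was -0.03, and the median size was 0.39. The gut and spleen libraries did not overlap in 3696 of the 3703 called genes, against 53.4% of all genes tested. In 3702 of them both gut libraries differed from the spleen library of the same title number in the called direction. The genes were called from these same libraries, so neither count is separate support for the calls. Genes called higher took 36.1% and 34.1% of the counts in the gut libraries and 14.3 to 15.5% in the spleen libraries. The share of calls that were higher in gut was 52.4% with TMM factors, 25.2% when library totals were used without them and 23.9% on the deposited log2 FPKM values, where the median difference of all genes was -0.30 and -0.29. The differences below are relative to the TMM scale. Counts of called list members below are to be read beside the 28% of all genes called. Libraries with the same title number were taken as pairs, though the labels do not say what the number marks. With title number as a block, edgeR called 4913 genes (37.2%), 2472 higher (18.7%) and 2441 lower (18.5%). With it as a random effect, limma-voom called 2688 genes lower, against 1580 without it.

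**Figure D1:**
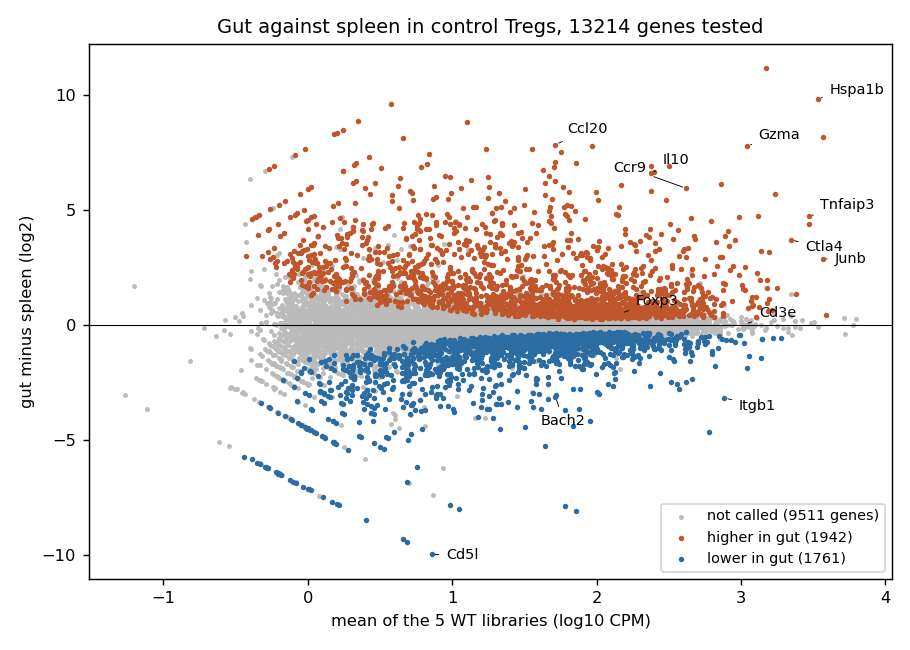
Each point is 1 of the 13214 genes tested, with the mean of the 5 WT libraries on the horizontal axis (log10 CPM) and the gut minus spleen difference on the vertical axis (log2). Orange points are the 1942 genes called higher in gut, blue points the 1761 called lower and grey points the genes not called, and slanting rows at low levels are genes with few or no counts in 1 tissue. Hspa1b, Gzma, Ccl20 and Il10 lie far above 0, Itgb1 and Cd5l below it, and Foxp3 close to it.

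Among genes with a mean of at least 5 CPM, leaving aside immunoglobulin and T cell receptor genes, markers of other cells and predicted genes, the largest differences toward gut were in Hspa1a, Hspa1b, Rbm24, Ccl20, Gzma, Ahrr, Atf3, Areg, Il10 and Gzmb. They encode stress chaperones, transcription factors, cytotoxic granule proteins, a chemokine, a growth factor and a cytokine, besides Rbm24. Genes left aside differed by as much, such as Igha, an antibody chain (8.18), and 8 markers of pancreatic acinar cells (median 6.80, but -2.77 in Maf-KO). Rbm24, which encodes an RNA-binding protein, had 310 and 204 counts in gut and 0, 2 and 0 counts in spleen. The largest differences toward spleen included Fut7, which encodes a fucosyltransferase that builds sugar ligands of adhesion, with 1 and 1 counts in gut and 90, 151 and 93 counts in spleen (adjusted p = 1.15e-04). Ly6c1, Igfbp4, Dapl1 and Sema4a belonged to the same group, with differences of -4.36, -4.16, -4.74 and -4.40. Sema4a encodes a semaphorin that binds other immune cells. Among the genes with the most counts, those called at least 2-fold higher in gut included Junb, Tnfaip3, Btg1, Ctla4, Hspa5, Stk17b and Cd83. Those called at least 2-fold lower included Flna, Ms4a4b, Itgb1, Ltb, Atp1b3, Il16 and Dgka. Flna, the gene of the actin cross-linker filamin A, stood at 624 and 734 CPM in gut and 1649.9, 2273 and 1573 CPM in spleen.

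Some of the largest differences toward spleen were in genes that other cells are known for. Cd5l, which encodes a secreted macrophage protein, had no counts in either gut library and 87, 69 and 243 counts in spleen, at least 62.8-fold lower in gut when set against a floor of 3 counts over the group. Fcna, a macrophage ficolin gene, had 0 and 1 counts in gut and 194, 118 and 234 counts in spleen (adjusted p = 2.34e-04). Ngp, a neutrophil granule gene, had 1 and 0 counts in gut and 138, 91 and 381 counts in spleen (adjusted p = 0.0145). Slc40a1, the gene of the iron exporter ferroportin, differed by -5.25. The call for Ngp was lost with limma-voom, with and without title number as a random effect, and without either gut library (adjusted p up to 0.176). Spleen replicate 3 was the highest of the 5 libraries for all 4 genes. The summed markers of macrophages, monocytes and dendritic cells were 125 and 257 CPM of the library total in gut and 244, 175 and 359 in spleen. Of 14 tested, 1 was called lower (4 with title number as a block) and 1 higher. In the main fit this is 14.3%, against 28% of all genes. Without gut replicate 3 none of the 14 was called. Neutrophil, mast cell and eosinophil markers summed to 6.19 and 4.82 CPM in gut and 51.5, 33.9 and 708 in spleen, with Ly6g and Elane at 0 in gut. Of 7 tested, 2 were called lower and 1 higher, which is 42.9% against 28% of all genes. None of these markers was called without gut replicate 1, nor without gut replicate 3. The part of these cells in the differences was not tested.

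The lineage gene itself was slightly higher in gut, while other genes of the Treg signature went in both directions. Foxp3 stood at 156 and 206 CPM in gut and 117, 126 and 134 CPM in spleen. The gut libraries were both above all 3 spleen libraries, and the gene was called (log2 difference 0.53, SE 0.14, adjusted p = 0.0162). This call was lost without gut replicate 3, with library totals and on log2 FPKM, where the adjusted p reached 0.152. Il2ra, the alpha chain of the IL-2 receptor, went the other way, with 351 and 357 CPM in gut and 554, 759.9 and 494 CPM in spleen (log2 difference -0.77, SE 0.23, adjusted p = 0.0293), and lost its call without gut replicate 1, gut replicate 3 or spleen replicate 2 (up to 0.133). Of 13 identity genes tested, 6 were called higher and 5 lower (median 0.04, and -0.23 with library totals). Without gut replicate 1 the number lower was 2, and without gut replicate 3 or spleen replicate 2 it was 3. Ctla4, whose product removes costimulatory ligands from other cells, was among those higher, at 5639 and 4321 CPM in gut and 353, 333 and 455 CPM in spleen. Its gut libraries were both far above the spleen libraries (log2 difference 3.71, SE 0.20, adjusted p = 1.91e-06). Tnfrsf18, the gene of GITR, Itgb8, an integrin chain that activates TGF-beta, and Capg, an actin-capping gene, were higher by 1.20, 1.85 and 1.29. Nrp1, the neuropilin gene found in thymus-derived Tregs, stood at 73.1 and 113 CPM in gut and 449.6, 582 and 581 CPM in spleen, and both gut libraries were below every spleen library (log2 difference -2.53, SE 0.24, adjusted p = 5.28e-05). Gpr83, an orphan receptor gene of Tregs, was lower as well, with a difference of -2.54. Lrrc32, which encodes the TGF-beta carrier GARP, was not called (log2 difference -0.84, SE 0.31, adjusted p = 0.07), but was with title number as a block (-0.56, adjusted p = 0.0048).

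Genes of suppression and repair held some of the largest differences. Of 13 suppressive molecules, 8 were called higher and none lower, and their median was 1.04. Il10, the gene of an anti-inflammatory cytokine (Entrez 16153, chromosome 1 from 131019845 to 131024970, GRCm38), stood at 616 and 555 CPM in gut and 7.64, 3.69 and 6.83 CPM in spleen (log2 difference 6.61, SE 0.26, adjusted p = 2.55e-07). Areg, the gene of the epithelial growth factor amphiregulin, was at 633 and 602 CPM in gut and 5.6, 5.85 and 7.11 CPM in spleen (log2 difference 6.64, SE 0.24, adjusted p = 1.78e-07). In both genes the 2 gut libraries lay close together and far above the spleen libraries. The granzyme genes Gzmb and Gzma, whose products enter target cells with perforin, were higher by 6.12 (SE 0.46) and 7.79 (SE 0.61). Gzma reached 2869.7 and 2608 CPM in gut and 12.8, 6.08 and 18.4 CPM in spleen. Fgl2, which encodes a secreted suppressive protein, and Ebi3, a subunit of IL-35 and IL-27, differed by 3.36 and 1.04. The enzymes that make adenosine were not called, with a difference of 0.49 (adjusted p = 0.122) for Nt5e (CD73) and -0.34 (adjusted p = 0.205) for Entpd1 (CD39). Lgals1, the gene of galectin-1, was not called either (0.47, adjusted p = 0.124). With title number as a block, Nt5e was called higher (0.57, adjusted p = 0.0131), as was Lgals1 (0.56, adjusted p = 0.0203).

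Cytotoxic genes are shared with CD8 T cells, natural killer cells and innate lymphoid cells, so markers of those cells are given beside them. Their summed level was 365 and 335 CPM of the library total in gut and 166, 176 and 202 in spleen. Only 3 of the 12 markers tested had a positive difference, however, and the median of the 12 was -0.96. Of 12 tested, 3 were called higher (Kit, Il1rl1 and Cd160, of which Tregs are known to express Il1rl1 and Cd160 is also in the coinhibitory list) and 3 lower. The number lower was 0 without gut replicate 1, 1 without gut replicate 3 or spleen replicate 3, and 6 with title number as a block or without Maf-KO spleen replicate 2, which the fit uses for its spread. Cd8b1, the beta chain of CD8, stood at 8.16 and 12.3 CPM in gut and 36.4, 32.6 and 34.9 CPM in spleen and lost its call without gut replicate 1 (adjusted p = 0.0559). Klrc1, a natural killer receptor gene, had no counts in either gut library and lost its call without gut replicate 1, gut replicate 3 or spleen replicate 3 (adjusted p up to 0.0997). The part of such cells in the granzyme difference was not tested.

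Among coinhibitory receptors, 9 of 16 were called higher and 1 lower (median 1.11). Besides Ctla4, they were led by Havcr2, the gene of TIM-3, with 60.7 and 55.9 CPM in gut and 6.49, 3.16 and 5.79 CPM in spleen (log2 difference 3.51, SE 0.40, adjusted p = 1.78e-04). Klrg1, a marker of terminally differentiated T cells, was at 579 and 407 CPM in gut and 60.4, 97.2 and 50.4 CPM in spleen, and its gut libraries exceeded all spleen libraries (log2 difference 2.83, SE 0.41, adjusted p = 8.43e-04). Cd160, Cd200r1 and Cd274 (PD-L1) were higher by 2.31, 1.94 and 1.33. Btla, which encodes a receptor for HVEM, was the 1 lower member (-1.30). Vsir, the gene of VISTA, stood at 295 and 329 CPM in gut and 312, 416 and 330.4 CPM in spleen and was not called (adjusted p = 0.405).

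Factors of effector Tregs and factors of resting T cells went in opposite directions. Of 20 factors of effector Tregs, 16 were called higher in gut and 1 lower (median 1.65). Of 13 factors of naive and quiescent T cells, none was called higher and 9 were called lower (median -0.93). Bhlhe40, a basic helix-loop-helix repressor found in effector T cells, stood at 2073 and 2492 CPM in gut and 96.3, 66.7 and 101 CPM in spleen (log2 difference 4.70, SE 0.39, adjusted p = 2.55e-05). Id2, which blocks E proteins, was at 1882 and 1773 CPM in gut and 169, 99.4 and 228 CPM in spleen, and its relative Id3 was at 11.4 and 29.3 CPM in gut and 168, 145 and 151 CPM in spleen. Gut was the high tissue for Id2 and the low tissue for Id3, with differences of 3.47 (SE 0.27) and -2.92 (SE 0.32). Rora, Irf4 and Ahr, known for effector and mucosal T cells, differed by 3.22, 2.01 and 1.99. Maf, the gene deleted in the other mice of the series, stood at 108 and 109 CPM in gut and 30, 24 and 45.9 CPM in spleen (log2 difference 1.70, SE 0.33, adjusted p = 0.00388). It lost its call on log2 FPKM (adjusted p = 0.102). Pparg, known for adipose Tregs, was lower in gut at low levels, 0.628 and 0.591 CPM in gut and 2.58, 3.54 and 2.56 CPM in spleen, and lost the call without either gut library, without spleen replicate 2 and with limma-voom (adjusted p up to 0.118).

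Tcf7, the gene of TCF1, stood at 104 and 161 CPM in gut and 732, 631 and 655 CPM in spleen (log2 difference -2.34, SE 0.21, adjusted p = 4.75e-05). Bach2, a repressor that keeps Tregs in the resting state, was at 7.16 and 11.4 CPM in gut and 76.7, 99 and 65.5 CPM in spleen (log2 difference -3.11, SE 0.37, adjusted p = 2.50e-04). In both, the 2 gut libraries were below all 3 spleen libraries. Lef1, the partner of TCF1, Klf3, a zinc finger repressor, and Foxp1, a factor of quiescence, differed by -1.39, -1.64 and -0.93.

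Surface genes of naive cells and of lymphoid homing were lower in gut in 13 of 17 cases and higher in none (median -2.54). S1pr1, the sphingosine receptor for leaving tissue, was at 72.1 and 93.8 CPM in gut and 559, 683 and 459.9 CPM in spleen (log2 difference -2.77, SE 0.32, adjusted p = 1.97e-04). Il6ra, an IL-6 receptor chain, and Treml2 differed by -3.63 and -3.56. Ly6c1 has near-identical neighbours, so its count is uncertain. Ccr7, the receptor for lymph node chemokines, stood at 257 and 322 CPM in gut and 437, 385 and 279.9 CPM in spleen. The tissues overlapped, and the gene was not called (log2 difference -0.34, SE 0.35, adjusted p = 0.504). Il7r and Cxcr4 were not called either, at 0.52 (adjusted p = 0.314) and 1.14 (adjusted p = 0.177), though Cxcr4 was called higher with title number as a block (0.97, adjusted p = 0.0404).

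**Figure D2:**
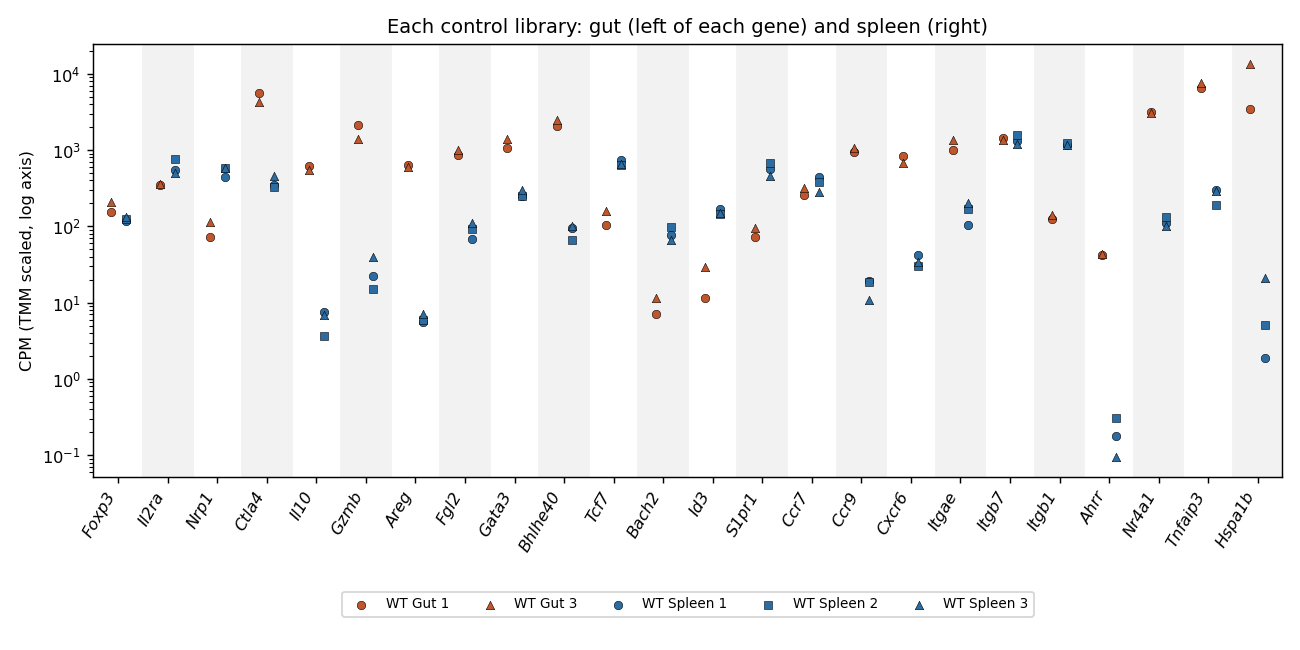
Levels of 24 genes in each WT library (TMM-scaled CPM, log axis), with gut in orange to the left and spleen in blue to the right of each gene and marker shapes for replicates 1 (circle), 2 (square) and 3 (triangle). Ctla4, Il10, Gzmb, Areg, Ccr9, Ahrr and Hspa1b lie higher in both gut libraries, Tcf7, Bach2, Id3, S1pr1 and Itgb1 lie lower, and the tissues overlap for Ccr7 and Itgb7.

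Receptors that direct and hold cells in tissue made up another large group. Of 18 chemokine receptors, 11 were called higher and 2 lower (median 1.71). Ccr9, the receptor for the small-intestinal chemokine CCL25, stood at 953 and 1077 CPM in gut and 19.1, 18.9 and 10.8 CPM in spleen (log2 difference 5.96, SE 0.33, adjusted p = 2.00e-06). Cxcr6, the receptor for CXCL16, was at 832 and 672 CPM in gut and 42.2, 30.3 and 34.1 CPM in spleen (log2 difference 4.40, SE 0.23, adjusted p = 1.51e-06). Both were far higher in each gut library than in any spleen library. Ccrl2 and Ccr4 were higher by 4.20 and 1.56, and Cxcr5, which leads to B cell follicles, was lower (-1.77). Itgae, whose product binds E-cadherin on epithelium, stood at 998 and 1357 CPM in gut and 105, 167 and 201 CPM in spleen (log2 difference 2.90, SE 0.33, adjusted p = 1.93e-04). Its partner gene Itgb7 was at 1439 and 1352 CPM in gut and 1313, 1577 and 1201 CPM in spleen, where the tissues overlapped, and was not called (log2 difference 0.03, SE 0.15, adjusted p = 0.898). Itga4, the other partner of the beta7 chain, was not called either (0.07, adjusted p = 0.729). The size of these 2 differences was smaller than the shift between scalings, and both turned negative with library totals and on log2 FPKM. Itgb1, the chain shared by the receptors for fibronectin, laminin and collagen, stood at 125 and 141 CPM in gut and 1176, 1244 and 1154 CPM in spleen and Itga6, its laminin partner, at 58.1 and 63.3 CPM in gut and 182, 209 and 169.6 CPM in spleen. Both were lower in each gut library than in any spleen library (-3.16, SE 0.19, and -1.62, SE 0.18). Of 17 integrins, 5 were called higher and 3 lower (5 with title number as a block). In the main fit this is 47.1%, against 28% of all genes.

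Of 28 tissue residency genes tested, 15 of the 16 that mark resident cells were called higher and 7 of the 12 that mark circulating cells were called lower. Cd69, which holds S1PR1 inside the cell, stood at 1529.7 and 1562 CPM in gut and 202, 142 and 247 CPM in spleen (log2 difference 2.97, SE 0.20, adjusted p = 7.77e-06). Rgs2, a brake on G protein signals, was at 1316 and 1598 CPM in gut and 96.2, 45.5 and 49.5 CPM in spleen (log2 difference 4.52, SE 0.29, adjusted p = 6.39e-06). Gpr55, a lipid receptor, Gpr132 and Gpr65, receptors for lipids and acid, and Gpr15, a receptor for colonic homing, were higher by 3.75, 2.24, 2.25 and 1.63. Of 26 tissue-positioning G protein receptors and RGS genes, 14 were called higher and 6 lower (2 without gut replicate 1). Chemokine genes were called higher in 11 of 14 cases and lower in none (median 3.06). Ccl20, whose product draws CCR6+ cells, stood at 148 and 110.1 CPM in gut and 0.8, 0.385 and 0.474 CPM in spleen (log2 difference 7.85, SE 0.39, adjusted p = 7.77e-06). Xcl1, which attracts cross-presenting dendritic cells, and Ccl4 were higher by 4.01 and 3.03.

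Most tested genes of the Th17, GATA3 and Th1 lists were higher in gut. The Th17 list had 17 of 19 tested genes called higher (median 2.96), the GATA3 and ST2 list 14 of 15 (median 2.20) and the Th1 list 14 of 20 (median 1.64). 1 gene was lower in each of the last 2 lists, and the lists share members with each other and with those above. In the main fit calls made up 89.5%, 100% and 75% of the 3 lists, against 28% of all genes. In the Th1 list, 5 of 6 cytokines or chemokines, 5 of 6 receptors and 3 of 4 granule genes were called higher. Of its 4 factors 1 was called higher, with a median of 0.10 over the 4. Il1r1, the IL-1 receptor, and Tmem176b, an ion channel gene, were higher by 4.80 and 2.62. Il17a, picked after its values were seen, had 64 and 27 counts in the gut libraries and none in the 3 spleen libraries. Gata3 stood at 1066 and 1406 CPM in gut and 249, 248 and 299 CPM in spleen (log2 difference 2.22, SE 0.17, adjusted p = 1.47e-05), and Il1rl1, the gene of the IL-33 receptor ST2, at 143 and 171 CPM in gut and 35.7, 67.8 and 74.8 CPM in spleen (log2 difference 1.40, SE 0.30, adjusted p = 0.00696). Nfil3 and Tnfrsf9 (4-1BB) were higher by 4.17 and 1.79. Il12rb2, the inducible chain of the IL-12 receptor, was at 22.1 and 13.7 CPM in gut and 1.87, 1.39 and 2.37 CPM in spleen (log2 difference 3.26, SE 0.36, adjusted p = 1.49e-04), and Il12rb1 and Nkg7 were higher by 1.88 and 1.64. Among the signal transducers, Stat3 and Stat4 were not called, at 0.28 (adjusted p = 0.356) and 0.31 (0.0733). Stat4 was called higher with title number as a block (0.31, adjusted p = 0.0368). Il17rb, a receptor for IL-25 that the Th2 list holds, stood at 91.8 and 133 CPM in gut and 4, 4.31 and 2.28 CPM in spleen (log2 difference 4.98, SE 0.26, adjusted p = 1.80e-06). Il4, the defining Th2 cytokine, was not called (log2 difference 1.85, SE 0.65, adjusted p = 0.0594), but was with title number as a block (1.53, adjusted p = 0.00385).

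Among follicular genes, 4 of 17 were called higher and 3 lower (median -0.32), which is 41.2% against 28% of all genes. The number lower was 7 with title number as a block. Bcl6, the repressor that defines follicular helper cells, Icos, a costimulatory receptor, and Cd40lg, which stimulates B cells, were higher by 2.06, 2.41 and 2.26. Slamf6 was lower (-1.22), as were Cxcr5 and Btla.

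The aryl hydrocarbon receptor is a ligand-activated factor that senses diet and microbial products. Of 8 genes of its pathway tested, 5 were called higher and none lower (median 1.81). Ahr stood at 289 and 342 CPM in gut and 69.9, 77.2 and 90.3 CPM in spleen. Ahrr, the gene of its repressor and a direct target, was at 42.2 and 43 CPM in gut and 0.178, 0.308 and 0.0949 CPM in spleen (log2 difference 7.65, SE 0.41, adjusted p = 1.91e-06). Tiparp, another target and feedback inhibitor, was at 226 and 289 CPM in gut and 35.6, 37.6 and 50.7 CPM in spleen (log2 difference 2.64, SE 0.21, adjusted p = 1.68e-05). For all 3 genes the gut libraries were above every spleen library. Cyp1a1, the classical target in liver and epithelium, remained at the level of a few counts, 0.628 and 1.66 CPM in gut and 0.978, 0.77 and 0.664 CPM in spleen, and no difference was detectable at this depth. RefSeq gives 250 bases before the start of Ahrr (GRCm38.p6), in which the receptor's core motif GCGTG was found 3 times in a search of both strands. The stretch below covers chr13:74292337-74292456 on the minus strand, 5′ to 3′, with the 3 matches in capitals.
Ahrr: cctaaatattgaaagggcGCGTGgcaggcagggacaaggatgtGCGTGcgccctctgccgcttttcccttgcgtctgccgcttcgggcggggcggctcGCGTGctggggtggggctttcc
That motif is short, and 45.2% of the 9892 tested genes with a RefSeq promoter hold it in the same window.

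Immediate-early genes are those that cells switch on within minutes of a stimulus. They had the largest number of calls among the 35 lists of Treg states and pathways, which differ in size. By share the GATA3 and ST2 list was ahead in the main fit, with 100% of its tested genes called. That share was 80% without spleen replicate 2 and 86.7% with library totals. Of 32 immediate-early genes, 28 were called higher and 1 lower (median 2.74), which is 90.6% against 28% of all genes. Together they took 2.81% and 3.21% of the counts in the gut libraries and 0.636 to 0.961% in the spleen libraries. Nr4a1, an orphan nuclear receptor induced by antigen receptor signals, stood at 3159 and 3026 CPM in gut and 112, 132 and 100.1 CPM in spleen (log2 difference 4.75, SE 0.18, adjusted p = 1.85e-07). Its relatives Nr4a2 and Nr4a3 were higher by 4.78 and 4.36. Atf3, a stress-induced factor, was at 81.6 and 173 CPM in gut and 1.24, 0.924 and 0.569 CPM in spleen (log2 difference 7.10, SE 0.50, adjusted p = 9.57e-06). Junb, an AP-1 subunit, was at 7568 and 7779 CPM in gut and 1636, 746 and 726 CPM in spleen (log2 difference 2.89, SE 0.35, adjusted p = 2.58e-04). The phosphatase genes Dusp4, Dusp5 and Dusp10, which switch off MAP kinases, were higher by 3.62, 3.74 and 3.58. None of the 3 EGR genes was called higher in this fit. Egr1 stood at 202 and 335 CPM in gut and 183, 157 and 227 CPM in spleen and was not called (0.51, adjusted p = 0.181), but was called higher with title number as a block (0.36, adjusted p = 0.0384). Egr3 was not called (-0.93, adjusted p = 0.0631). Egr2, named after its values were seen, was the lower member (-1.25, SE 0.38, adjusted p = 0.0333). Its call was lost without gut replicate 1 and without spleen replicate 3 (adjusted p up to 0.223). EGR factors, like the NR4A factors, are known to be induced through the antigen receptor. Tissue cannot be told apart here from any handling of the cells that differed between gut and spleen. The part of handling in these differences was not tested.

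Heat shock genes held the largest differences among the named genes. They took 1.22% and 3.22% of the counts in gut replicates 1 and 3 and 0.291 to 0.519% in spleen. Hspa1a and Hspa1b, which encode the inducible HSP70 chaperone, stood at 1331 and 6095 CPM in gut and 0.178, 1.23 and 3.51 CPM in spleen and at 3449.9 and 13554 CPM in gut and 1.87, 5.16 and 20.9 CPM in spleen. Gut replicate 3 was the highest library for both. Their differences were 11.17 (SE 1.49, adjusted p = 4.97e-04) and 9.85 (SE 1.72, adjusted p = 0.00233). The 2 genes are near-identical neighbours on chromosome 17, so how their reads were split is uncertain. The co-chaperone genes Dnajb1, Dnajb4 and Bag3 were higher by 3.71, 3.42 and 3.13. Hspa5, the chaperone of the endoplasmic reticulum, was at 3002 and 3027 CPM in gut and 1026, 876 and 1006 CPM in spleen (log2 difference 1.64, SE 0.15, adjusted p = 4.72e-05). Of 15 genes, 11 were called higher and none lower (median 2.33). Over the fits that left out 1 library, the number called higher ranged from 6, without gut replicate 3, to 12. The constitutive chaperone genes Hspa8 and Hsp90ab1 were not called. Hspa8 stood at 540.2 and 1287 CPM in gut and 153, 259 and 365 CPM in spleen (log2 difference 1.82, SE 0.83, adjusted p = 0.131). With title number as a block both were called higher (1.82, adjusted p = 1.03e-05 for Hspa8, 1.09, adjusted p = 2.19e-04 for Hsp90ab1). As for the immediate-early genes, the part of cell handling in the heat shock differences was not tested.

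NF-kB genes were called higher in 17 of 25 cases and lower in none (median 1.23). They included feedback inhibitors of the pathway. Tnfaip3, the gene of the deubiquitinase A20, stood at 6430.0 and 7538 CPM in gut and 304, 189 and 292 CPM in spleen (log2 difference 4.74, SE 0.22, adjusted p = 8.00e-07). Nfkbia, the gene of I-kappa-B alpha, was at 2406 and 2490.4 CPM in gut and 599, 442 and 474 CPM in spleen (log2 difference 2.28, SE 0.18, adjusted p = 1.73e-05), and Nfkbiz and Nfkbid, nuclear members of that family, were higher by 3.86 and 3.01. Of the NF-kB subunits, Rel was at 448 and 362 CPM in gut and 33, 37.5 and 34.2 CPM in spleen (log2 difference 3.54, SE 0.12, adjusted p = 1.52e-07). Rel was high in both gut libraries, and Cd83, a surface protein of activated lymphocytes, was higher by 3.19. Bcl2a1b and Bcl2a1d are near-identical survival genes and are uncertain one by one; they differed by 1.94 and 2.37.

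Promoter sequences of some genes called higher are shown. Each gene was paired with a motif by choice, and only promoters that hold that motif are printed. They therefore do not stand for their groups. For Hspa1a and Hspa1b the capitals mark a pair of inverted heat shock units, GAANNTTC, for Tnfaip3 and Nfkbia an NF-kB motif, GGAANTTCC, for Gzmb and Fgl2 an AP-1 motif, TGANTCA, and for Areg a cyclic AMP response element, TGACGTCA. Sequences are from RefSeq (GRCm38.p6), 5′ to 3′ on the gene's strand, and lie within 250 bases before the start. They cover chr17:34972197-34972316 (minus strand) for Hspa1a, chr17:34959279-34959398 (minus) for Hspa1b, chr10:19015411-19015470 (minus) for Tnfaip3, chr12:55492648-55492707 (minus) for Nfkbia, chr14:56262360-56262419 (minus) for Gzmb, chr5:21372613-21372672 (plus) for Fgl2 and chr5:91139512-91139571 (plus) for Areg.
Hspa1a: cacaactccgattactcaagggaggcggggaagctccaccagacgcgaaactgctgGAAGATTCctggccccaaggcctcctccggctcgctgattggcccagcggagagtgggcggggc
Hspa1b: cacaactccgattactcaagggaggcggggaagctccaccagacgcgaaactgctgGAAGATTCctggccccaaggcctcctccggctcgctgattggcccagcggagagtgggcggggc
Tnfaip3: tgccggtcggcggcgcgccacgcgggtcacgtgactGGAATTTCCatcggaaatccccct
Nfkbia: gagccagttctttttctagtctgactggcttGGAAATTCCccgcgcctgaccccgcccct
Gzmb: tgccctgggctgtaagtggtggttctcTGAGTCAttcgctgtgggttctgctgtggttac
Fgl2: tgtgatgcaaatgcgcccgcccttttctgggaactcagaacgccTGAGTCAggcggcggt
Areg: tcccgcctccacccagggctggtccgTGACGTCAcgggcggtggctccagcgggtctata
Hspa1a and Hspa1b share 247 of the 250 bases before their starts. Each motif was searched on both strands, and a match describes the letters only. GAANNTTC was found in 5.1% of the 9892 promoters and in 5 of 12 heat shock genes that had one. It was found in 4.49% of the 757 promoters of genes called at least 2-fold higher. In the 597 of genes called at least 2-fold lower the share was 5.7%. GGAANTTCC was found in 1.08% of all promoters, 1.98% of the higher, 1.01% of the lower and 3 of 21 in the NF-kB list. TGANTCA was found in 4.21% of all, 7.4% of the higher, 5.19% of the lower and 1 of 28 in the immediate-early list. TGACGTCA was found in 2.77%, 3.17% and 0.84%.

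Receptors of the TNF family were called higher in 5 of 14 cases and their ligands in 4 of 11, and lower in 2 and 3 cases. Tnfrsf1b, the gene of TNF receptor 2, stood at 2507 and 2923 CPM in gut and 508, 692 and 882 CPM in spleen (log2 difference 1.97, SE 0.26, adjusted p = 4.56e-04), and Fasl, which triggers death of target cells, at 124 and 96.6 CPM in gut and 15.9, 12.6 and 17.3 CPM in spleen (log2 difference 2.85, SE 0.15, adjusted p = 1.53e-06). Ltb, which shapes lymphoid tissue, was at 462 and 408 CPM in gut and 891, 944 and 784 CPM in spleen, lower in both gut libraries (log2 difference -1.01, SE 0.14, adjusted p = 5.55e-04). Tnf was not called (0.61, adjusted p = 0.0534), but was called higher in 9 of the 21 alternative fits (adjusted p from 0.0172 to 0.282 over the 21). In the TGF-beta list, 8 of 20 were called higher and 2 lower (4 with title number as a block). Furin, which cleaves the precursor of TGF-beta, Tgif1 and Skil, repressors of the pathway, and Smad7, its feedback inhibitor, were higher by 2.35, 3.06, 1.83 and 1.20. The co-receptor gene Tgfbr3 was at 3.14 and 3.43 CPM in gut and 29.8, 29.2 and 24.9 CPM in spleen (log2 difference -3.08, SE 0.27, adjusted p = 3.70e-05).

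Cytokine receptors were called higher in 12 of 31 cases and lower in 7, which is 61.3% against 28% of all genes. Il1r1, Il17rb and Il12rb2 were among the higher and Il6ra, Tgfbr3 and Il2ra among the lower. Among nuclear receptors and their partners, 3 of 14 were called higher and 2 lower, which is 35.7% against 28% of all genes. Nr3c1, the gene of the glucocorticoid receptor, stood at 663 and 747 CPM in gut and 181, 207 and 312 CPM in spleen (log2 difference 1.59, SE 0.24, adjusted p = 0.00113). Rarg, a retinoic acid receptor gene, was at 6.03 and 9.34 CPM in gut and 50.6, 90.2 and 45 CPM in spleen (log2 difference -3.01, SE 0.35, adjusted p = 2.34e-04). Nr1d1 and Nr1d2, repressors of the circadian clock, were higher by 1.38 and 1.20. Vdr, the vitamin D receptor gene, was not called (0.87, adjusted p = 0.361).

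Genes of matrix and proteases were called higher in 9 of 22 cases and lower in 1 (3 with title number as a block). In the main fit this is 45.5%, against 28% of all genes. Sdc4, a cell surface proteoglycan gene, stood at 153 and 147 CPM in gut and 16.4, 21.7 and 20.6 CPM in spleen (log2 difference 2.94, SE 0.18, adjusted p = 5.38e-06). Adam8, a membrane protease gene, was at 152 and 127 CPM in gut and 11.6, 16.6 and 11.2 CPM in spleen (log2 difference 3.40, SE 0.29, adjusted p = 2.90e-05). Both were higher in each gut library than in any spleen library. Serpinb6b, a protease inhibitor gene, and Ctsw, a cathepsin gene of cytotoxic cells, were higher by 1.74 and 1.55. Of 21 S100, annexin and galectin genes, 2 were called higher and 3 lower, which is 23.8% against 28% of all genes. In the fit with title number as a block 5 were called in each direction, which is 47.6% against 37.2% of all genes. None was called lower without gut replicate 1, without gut replicate 3 or by limma-voom, and 8 were with library totals. Without Maf-KO spleen replicate 1, 4 were called higher. The 2 S100 genes among the lower were S100a8 and S100a9, which neutrophils make in large amounts. S100a8 stood at 0 and 0.828 CPM in gut and 23.2, 14.7 and 321 CPM in spleen, and spleen replicate 3 was far above the rest. The calls for both genes were lost in part of the alternative fits (adjusted p up to 0.396 and 0.385).

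Genes of adenosine, prostaglandin and cyclic AMP signalling were called higher in 11 of 25 cases and lower in 5 (2 without gut replicate 3, 3 without gut or spleen replicate 1). Crem, a cyclic AMP-induced factor, stood at 1013 and 682 CPM in gut and 28.9, 29.4 and 87.7 CPM in spleen (log2 difference 4.13, SE 0.47, adjusted p = 1.81e-04). The gut libraries were both above the spleen libraries. Adora2a, the adenosine receptor, and Ramp3, a receptor partner for calcitonin family peptides, were higher by 2.46 and 4.86. Vipr1, the receptor for vasoactive intestinal peptide, was lower, at 1.38 and 1.54 CPM in gut and 15.3, 13.2 and 11.5 CPM in spleen (log2 difference -3.18, SE 0.38, adjusted p = 2.72e-04). Pde4b, which breaks down cyclic AMP, was higher by 1.57.

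Signal molecules at the antigen receptor went both ways, with 40% called against 28% of all genes. Of 30 genes, 5 were called higher (3 without gut replicate 3) and 7 lower (4 without gut replicate 1), with a median of 0.07. Prkcq, the gene of protein kinase C theta, stood at 149.6 and 176 CPM in gut and 426, 478 and 456 CPM in spleen (log2 difference -1.48, SE 0.12, adjusted p = 2.61e-05). Dgkz and Dgka, lipid kinases that dampen the signal, were lower, with differences of -1.56 and -1.10. Cd28 and Cd6, surface costimulators, were higher by 0.63 and 0.76. None of the 10 CD4 T cell markers tested was called; their median was 0.06. Their summed level was 8349 and 8009 CPM of the library total in gut and 9335, 8893 and 9221 in spleen.

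Among metabolic genes, 5 of 19 glycolysis genes were called higher and 3 lower, which is 42.1% against 28% of all genes. The number lower was 0 without gut replicate 1 and 1 without gut replicate 3 or spleen replicate 2. In the fit with title number as a block 10 were called higher and 2 lower. Hk2 and Aldoa, early enzymes of glycolysis, were higher by 1.56 and 0.75. Of 24 genes of cholesterol synthesis and its control, 7 were called higher and none lower, which is 29.2% against 28% of all genes. Without spleen replicate 2 the number was 11. The blocked fit called 15 higher, which is 62.5% against 37.2% of all genes, and in the 4 paired WT libraries 13. Insig1, a sterol-regulated gene that restrains the pathway, stood at 180.5 and 144 CPM in gut and 33.7, 39.6 and 20.2 CPM in spleen (log2 difference 2.37, SE 0.23, adjusted p = 7.66e-05). Among lipid genes, Dgat1, which makes triglycerides, was at 628 and 409.9 CPM in gut and 38.2, 29.1 and 42.9 CPM in spleen (log2 difference 3.82, SE 0.21, adjusted p = 1.91e-06) and Hilpda, a lipid droplet gene, was higher by 3.27. Abca1, a cholesterol exporter, was lower (-2.36). In each direction 4 of 19 lipid genes were called, which is 42.1% in all against 28% of all genes. Of 13 amino acid transporters tested, 2 were called, Slc3a2 and Slc38a2, higher by 2.49 and 1.67. That is 15.4%, against 28% of all genes. The blocked fit, which called 37.2% of all genes, called 5 of the 13 higher.

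Of 34 cell cycle genes, 4 were called (11.8%, against 28% of all genes), and none of the 15 genes of mitosis was among them in this fit. The number called was 1 without gut replicate 1, 2 without spleen replicate 2 and 8 with title number as a block (23.5%, against 37.2% of all genes). Cdkn1a, the gene of the cell cycle inhibitor p21, stood at 144 and 169.9 CPM in gut and 2.49, 1.85 and 4.36 CPM in spleen (log2 difference 5.78, SE 0.38, adjusted p = 6.74e-06), with both gut libraries far above the spleen libraries. Survival genes went both ways. Of 15 genes of the Bcl2 family, 6 were called higher and 2 lower. Bcl2 was at 31.5 and 47.7 CPM in gut and 190.0, 231 and 170.2 CPM in spleen (log2 difference -2.31, SE 0.22, adjusted p = 5.90e-05), Bcl2l1 (BCL-XL) was higher by 1.32, and Pmaip1, the gene of the death inducer NOXA, was at 428 and 565 CPM in gut and 40.3, 21.3 and 36.5 CPM in spleen (log2 difference 3.93, SE 0.27, adjusted p = 7.77e-06).

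More genes of the type I interferon response were lower than higher in gut. Of 25, 2 were called higher and 9 lower (median -0.26), which is 44% against 28% of all genes. Usp18, a feedback inhibitor of the interferon receptor, stood at 7.54 and 8.04 CPM in gut and 80.1, 66.2 and 69.4 CPM in spleen (log2 difference -3.20, SE 0.27, adjusted p = 3.07e-05). Ifit2 and Ifit3, antiviral RNA-binding genes, and Stat2 and Irf9, parts of the factor that drives the response, differed by -1.43, -1.95, -0.83 and -0.89. Isg15, a ubiquitin-like member of the same response, was higher (1.35).

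**Figure D3:**
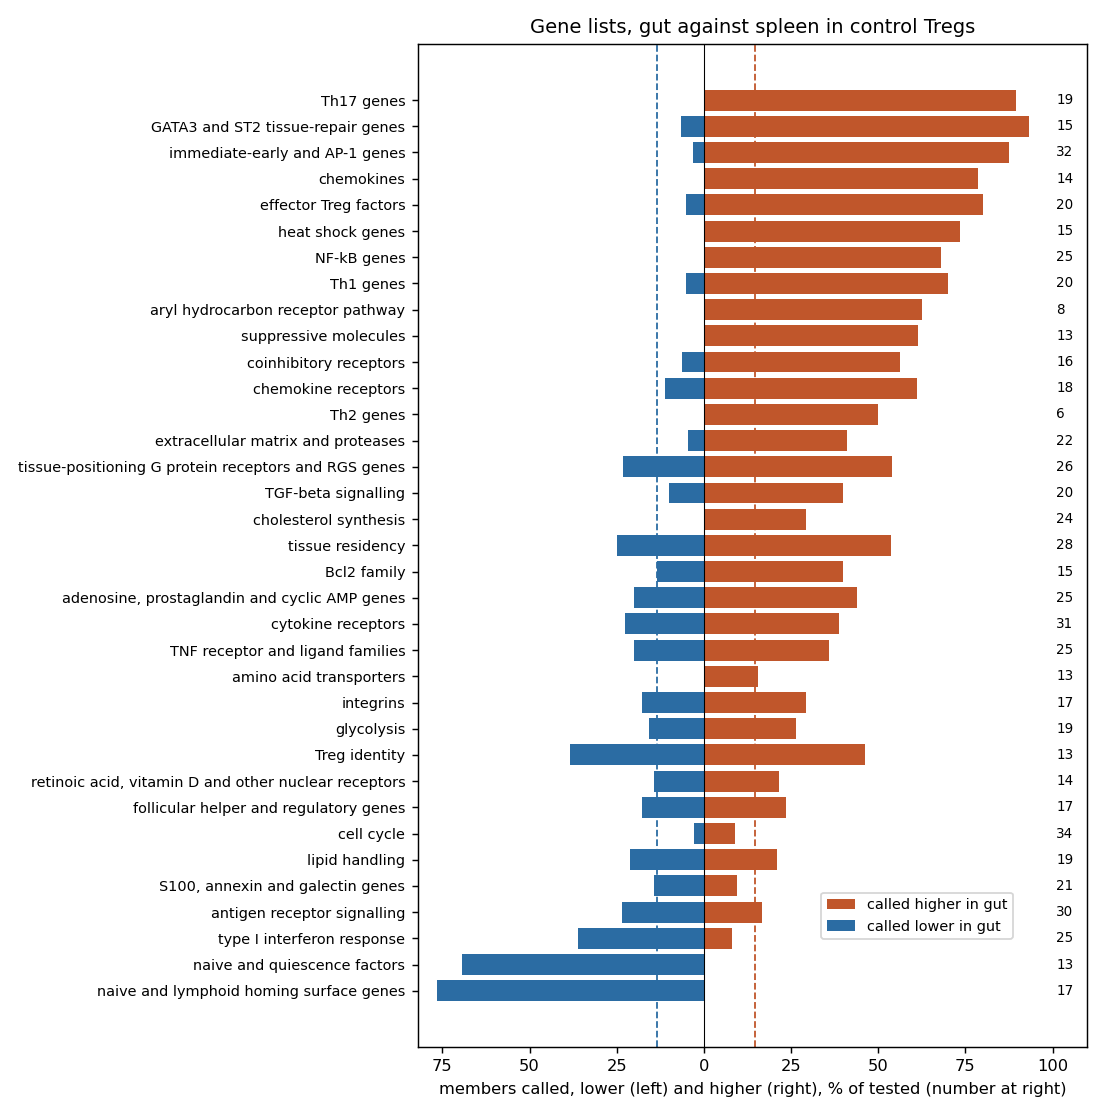
Share of tested members called lower (blue, to the left) and higher (orange, to the right) in gut for each of the 35 lists, in percent, with the number tested at the right edge. Dashed lines mark the share of all genes called in each direction, 13.3% and 14.7%, and the naive lists extend to the left while the Th17, GATA3, immediate-early and chemokine lists extend to the right.

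RNA known from other cells differed between the tissues. Immunoglobulin genes took 3.87% and 1.72% of the counts in the gut libraries and 0.19 to 0.367% in the spleen libraries, and 130 of 186 tested were called higher and 4 lower. Plasma cell markers summed to 26158 and 11378 CPM of the library total in gut and 710, 424 and 957 in spleen, with 9 of 10 called higher (5 without gut replicate 1). Igha, the heavy chain of IgA, stood at 12543 and 5993 CPM in gut and 43.9, 20.6 and 31.5 CPM in spleen and Jchain, which joins IgA dimers, at 6319 and 2006 CPM in gut and 80.1, 43.9 and 112 CPM in spleen. B cell markers went the other way, with 470 and 724 CPM in gut, 2033, 1540 and 2459 in spleen and 9 of 11 called lower. Pancreatic acinar markers were called higher in all 8 cases tested (2 without gut replicate 1) and summed to 190 and 38.5 CPM in gut and 8.1 to 13.6 in spleen, and gut replicate 1 was the highest. In Maf-KO none of these 8 pancreatic markers was called, and their median difference was -2.77, against 6.80 in controls. Epithelial markers summed to 136 and 159 CPM in gut and 41.1 to 68.2 in spleen. Epcam, which activated T cells can also carry, made up most of that sum, and Muc2, Cdx2 and Alpi were at 0 in gut. With 2 against 3 libraries the smallest two-sided exact permutation p, with the tail doubled, is 0.2, which the sums of these lists reached. When heat shock, immediate-early, immunoglobulin and other-cell genes were left out before scaling, 3531 genes were called, and 3443 of the 3703 calls were among them in the same direction. The 3703 include called genes of the groups left out, which could not be called in that fit.

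**Figure D4:**
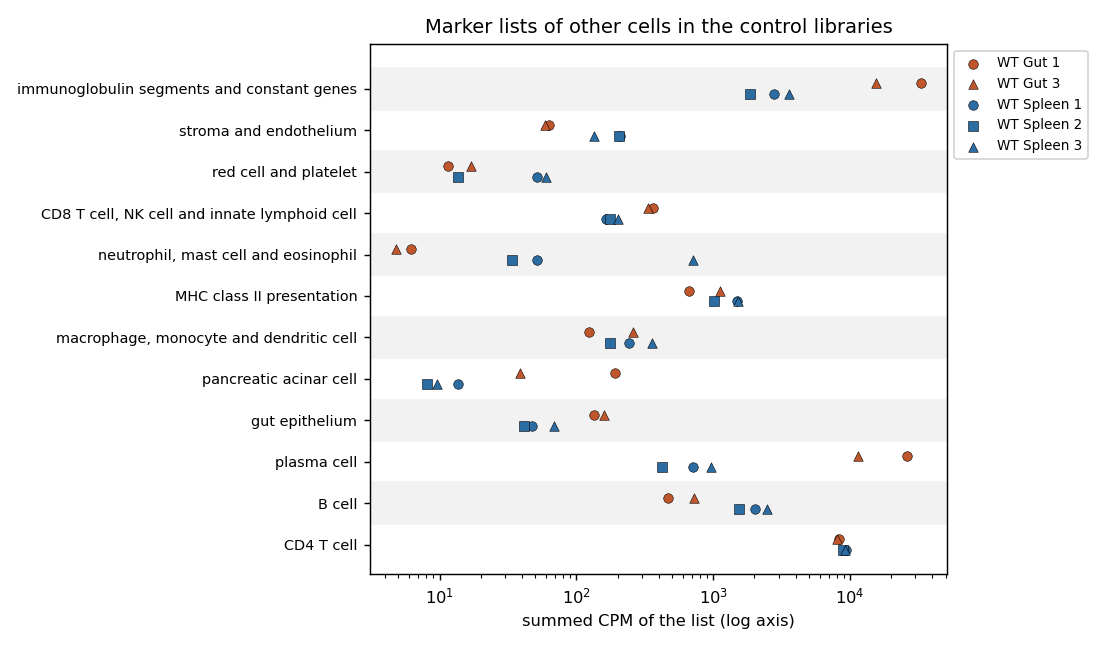
Summed level of each marker list in each WT library (CPM of the library total, log axis), gut in orange and spleen in blue, with marker shapes for replicates 1 (circle), 2 (square) and 3 (triangle). CD4 T cell markers lie together near 8009 to 9335, plasma cell and immunoglobulin genes lie higher in gut, and B cell and neutrophil markers lie higher in spleen.

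The same contrast in Maf-KO Tregs shares no library with the control contrast, although 1 fit gave both their spread, and gives the tissue difference where Maf is deleted. Maf stood at 0.609 and 0.239 CPM in the Maf-KO gut libraries and 0.217, 1.1 and 0.195 CPM in the Maf-KO spleen libraries, beside 108 and 109 CPM in gut and 30, 24 and 45.9 CPM in spleen of controls. In Maf-KO, 3772 genes were called (28.5%), 1904 higher in gut (14.4%) and 1868 lower (14.1%). With title number as a random effect in limma-voom the count was 5777. There were 2825 genes called in both genotypes in the same direction, 76.3% of the control calls and 74.9% of the Maf-KO calls, and 1 was called in opposite directions, Btbd8, named after its values were seen (1.07 in controls and -1.16 in Maf-KO). Its control call was lost in most alternative fits and with title number as a block (1.05, adjusted p = 0.0913). The sign was the same in Maf-KO for 99.1% of control calls, against 83.1% of all genes tested. No gene was called for a difference of the tissue effect between genotypes by edgeR (0%), while 422 had an unadjusted p under 0.05. DESeq2 called 8, among them Nkg7, and limma-voom none. Of the 579 genes in the 35 lists that were tested, 315 were called in controls, and 312 of these had the same sign in Maf-KO. Those with the opposite sign were Maf, Cdkn2c, a cell cycle inhibitor gene whose control call was lost in 12 of the alternative fits, and Ffar2, a short-chain fatty acid receptor gene named after its values were seen, whose control call was lost in 7 of them (adjusted p up to 0.192). Maf itself differed by 1.70 in controls and -0.23 in Maf-KO, where the gene is deleted. The tissue difference in controls and in Maf-KO was 6.61 and 5.67 for Il10, 3.71 and 4.09 for Ctla4, 5.96 and 5.69 for Ccr9 and -2.34 and -2.19 for Tcf7. These values do not show that the genotypes are alike, since with 2 gut libraries each the test can miss differences.

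**Figure D5:**
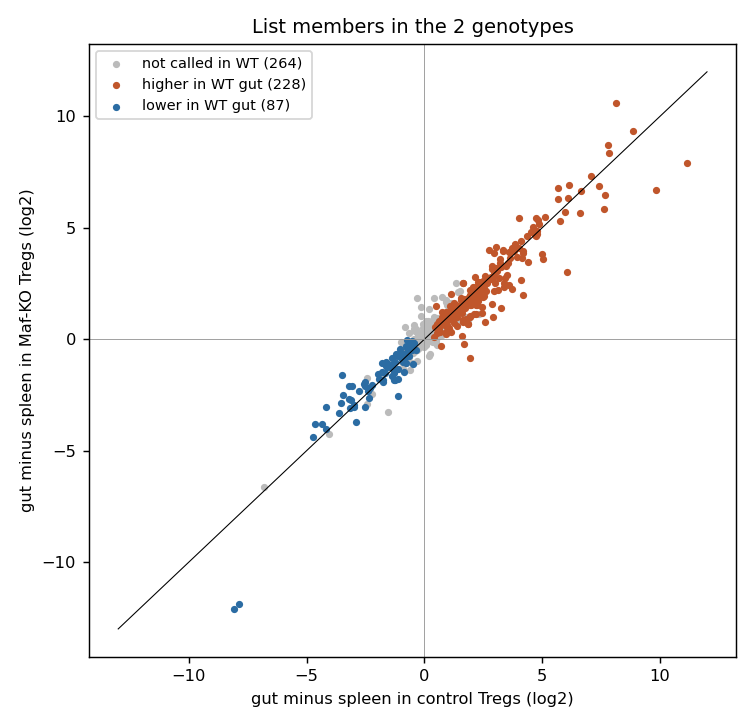
Gut minus spleen difference of the 579 tested list members in control Tregs (horizontal, log2) and in Maf-KO Tregs (vertical, log2), with the line of equal values. Orange points are the 228 genes called higher in control gut, blue points the 87 called lower and grey points the rest, and 312 of the 315 called points lie in the quadrants of equal sign.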

How the data were processed

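Per the labels' protocols, RNeasy Plus Mini columns were used for extraction and TruSeq RNA reagents for the libraries. The authors deposited raw counts per gene (27179 genes, 10 libraries) and log2 FPKM values. Per the submitters' processing notes, Subread, limma and featureCounts were used, without versions, and mm10 and GRCm38 are the builds listed. Whether counting used strand is not given in the sources used here, so overlapping and antisense genes cannot be told apart. Counts without a gene symbol made up 0.184 to 0.203% of the WT libraries.

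The counts were tested with edgeR 4.0.16 (R 4.3.3): filterByExpr over 4 groups (minimum count 10, total 15), TMM factors, glmQLFit on all 10 libraries with 1 coefficient per group, glmQLFTest, two-sided, and Benjamini-Hochberg adjustment over 13214 genes, called under 0.05. All 10 libraries entered so that the spread could be estimated with 2 gut libraries a genotype. Floors are 3 counts over a group and cover counting error only. A count of 3 equals 0.245 to 0.344 CPM in 1 WT library.

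The members of the comparison, the gene lists and the tests were chosen with earlier results of these data known. Named genes were, in each direction, up to 10 with the largest difference (mean of at least 5 CPM, no overlap of libraries), up to 8 with the most counts among those of at least 2-fold, up to 6 called and 3 uncalled members of each list, and 10 preset genes in every case (among them Foxp3, Il2ra, Ctla4, Maf, Il10, Ccr7, Itgae and Ccr9). A few genes that this rule names are not reported here. Predicted, ribosomal, mitochondrial and antigen receptor genes were left out of the first 2 groups.

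The title number was checked as a pairing. Deviations from the group means correlated across 13214 genes at 0.313 and 0.255 for same-numbered WT libraries and at 0.382 and 0.36 for Maf-KO libraries. With 2 gut libraries a genotype these values are not independent. They were taken as pairs from the data, since the labels do not say what the number marks.

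Alternatives used DESeq2 1.42.0, limma 3.58.1 (voom, and trend on the deposited log2 FPKM), other scalings, no filter, fewer libraries and the replicate block. The fit was tried on simulated data with 100 genes changed by a log2 of 1 and 100 by a log2 of 2. It recovered 65 and 94 of them, and 8 of its 167 calls were false. Far fewer genes were changed there than were called in the data, and the directions were balanced. The simulation therefore cannot show how the scaling behaves in these data. Names and promoters came from RefSeq (GRCm38.p6), which matched 25275 genes by identifier and gave a promoter for 9892 of those tested.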

Additional observations from a re-analysis of the deposited data

How the results depend on the processing

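Of the 177 called genes named in the text, 164 kept call and direction in every alternative run and 13 lost the call in some, with no change of direction. In controls, 3703 genes were called by edgeR, 3662 with DESeq2 size factors, 3704 with no filter, 3910 by DESeq2, 3503 by limma-voom, 3089 with the WT libraries alone and 3531 without the heat shock, immediate-early, immunoglobulin and other-cell genes, an alternative chosen after seeing the data. With library totals 5269 were called (3941 lower) and on log2 FPKM 4861 (1163 higher, 3698 lower). Both lower the scale of gut, as the shift of the median shows. Leaving out 1 library gave 2183 to 3597 calls, 1301 to 1913 higher and 882 to 1690 lower. The lowest counts, 2183 and 882, came without WT gut replicate 1, which leaves 1 gut library that is assumed to vary like the other groups. In Maf-KO the range was 2118 to 3784, with 2393 calls without gut replicate 2 and 2118 without gut replicate 3. With the title number as a replicate block, edgeR called 4913 genes in controls, 3570 of the 3703 among them, and 4168 in the 4 paired WT libraries. As a random effect in limma-voom (consensus correlation 0.509) the pairing gave 5498 calls, 2688 of them lower, where limma-voom without it gave 3503 and 1580, and 5777 in Maf-KO. Besides the genes given with a blocked value, the block in edgeR changed no call of a gene named in the report. The difference between genotypes gave 0 calls in each fit but DESeq2, with 8. Uncalled genes near 0 turned sign: Itgb7 was -0.23 with library totals, -0.20 on log2 FPKM, and -0.0503 to 0.15 over the fits without 1 library, Itga4 was -0.20 and -0.17, and -0.00661 to 0.13 without 1 library, and Cyp1a1 was -0.35 to 1.03 without 1 library. Over all settings the median of the antigen receptor list ranged from -0.20 to 0.10, of the cell cycle list from -0.42 to 0.34 and of the Treg identity list from -0.23 to 0.23. Among genes given as not called, Tnf was called in 9 of the alternatives, Egr3 in 3, Entpd1 and Vsir in 2 each and Il7r in 1. In the lists, 22 counts of called members in 1 direction were 1 or 2, and 10 of these fell to 0 in a fit without 1 library. Genes of a few counts are limited by depth. The cause of these changes was not tested.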

Other observations

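Most called genes lay outside the lists and the immunoglobulin genes described above, 1561 of those higher in gut and 1654 of those lower. The genes named here were picked from them after their values were seen, so they are examples that do not cover the range and carry no weight of their own. Among genes higher in gut, Lilr4b and Lilrb4a, which encode inhibitory receptors first known from myeloid cells, stood at 1058 and 413 CPM in gut and 15.5, 14.2 and 21.2 CPM in spleen and at 872 and 404 CPM in gut and 40.4, 30.4 and 53.3 CPM in spleen, and gut replicate 1 was the higher of the gut libraries for both. They are close relatives, so reads may have been shared between them. Summed plasma cell markers were also higher in gut replicate 1 than in 3 (26158 and 11378 CPM of the library total). Summed markers of macrophages, monocytes and dendritic cells were lower there (125 and 257). The part of such cells in the 2 differences was not tested. Epas1, the gene of the hypoxia factor HIF-2 alpha, was at 161 and 144 CPM in gut and 4.71, 7.93 and 6.36 CPM in spleen (log2 difference 4.58, SE 0.44, adjusted p = 6.12e-05). Gadd45b, a stress and cytokine response gene, was at 1027 and 1102 CPM in gut and 61, 29.9 and 36.6 CPM in spleen (log2 difference 4.65, SE 0.31, adjusted p = 7.40e-06). Bambi, a decoy receptor of the TGF-beta family, and Dkk3, a secreted relative of Wnt inhibitors, differed by 4.89 and 4.88. Nmur1, a receptor for the neuropeptide neuromedin U, was at 19.3 and 32.9 CPM in gut and 0.533, 1.92 and 1.14 CPM in spleen (log2 difference 4.41, SE 0.64, adjusted p = 7.83e-04). In Maf-KO the differences of Epas1, Gadd45b and Nmur1 were 3.97, 4.77 and 3.95.

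Among genes lower in gut, Gata1, a factor known from red cell and mast cell precursors and also found in T cells, stood at 2.01 and 2.36 CPM in gut and 26.8, 34.9 and 20.5 CPM in spleen (log2 difference -3.64, SE 0.40, adjusted p = 1.45e-04). Red cell and platelet markers summed to 11.6 and 17.1 CPM of the library total in gut and 51.7, 13.7 and 59.6 in spleen, and their part in this difference was not tested. Nod1, a sensor of bacterial cell wall fragments, was at 8.29 and 6.74 CPM in gut and 93.2, 115 and 77.1 CPM in spleen (log2 difference -3.66, SE 0.25, adjusted p = 7.83e-06). Tbxa2r, the thromboxane receptor gene, and Lfng, which modifies Notch receptors, differed by -3.62 and -2.62. St8sia6, a sialyltransferase gene, and Rasa3, a brake on small GTPases, differed by -2.99 and -2.48. The 2 gut libraries were below all 3 spleen libraries in each of these genes. Unlisted genes called lower in gut also included some known from B cells and myeloid cells, which are not named here. The part of such cells in the differences was not tested.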
